A study of Mus musculus with 15 samples.

Results

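The transcripts of 9 enzymes of the tricarboxylic acid (TCA) cycle other than isocitrate dehydrogenase were followed across the 15 libraries of the series. They are Cs, Aco1, Ogdh, Dlst, Dld, Suclg1, Suclg2, Fh1 and Mdh2, chosen by name, and found by matching the Ensembl identifiers of the count table to mouse gene symbols. All 9 were among the 45232 identifiers of the table and among the 17834 genes with enough counts to be tested. The cells were CD45.2+ LSK cells (lineage-negative, Sca-1+, Kit+), the bone marrow fraction that holds hematopoietic stem and early progenitor cells, from C57BL/6 mice. In the vehicle, AG221, ruxolitinib and combined groups they descended from marrow carrying both IDH2-R140Q and JAK2-V617F, conditional alleles induced through Mx1-Cre, which had been mixed with equal numbers of CD45.1 cells and transplanted into irradiated CD45.1 hosts. AG221 (40 mg/kg), an inhibitor of mutant IDH2, and ruxolitinib (60 mg/kg), a JAK kinase inhibitor, were given by gavage alone or together for 21 to 28 days, with the last dose about 1.5 hours before sacrifice. The WT group held LSK cells without these mutations, and each of the 5 groups had 3 libraries. Mx1-Cre acts beyond the blood, the hosts kept CD45.1 cells that the sort was meant to remove, and whether each library came from 1 mouse is not given in the sources used here. Mice of the study were adult males and females, with a single age range for all its experiments rather than an age for each group.

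The TCA cycle oxidizes acetyl-CoA in the mitochondrial matrix and feeds electrons to the respiratory chain. Citrate synthase (Cs) starts it, aconitase forms isocitrate, and isocitrate dehydrogenase makes 2-oxoglutarate, the substrate that mutant IDH2 turns into 2-hydroxyglutarate. The 2-oxoglutarate dehydrogenase complex (Ogdh, Dlst and Dld) makes succinyl-CoA, succinyl-CoA ligase (Suclg1 with Suclg2 or Sucla2) makes succinate, and fumarase (Fh1) and malate dehydrogenase (Mdh2) follow succinate dehydrogenase. Aco1 is the cytosolic aconitase, also known as iron regulatory protein, so it is not the enzyme of the mitochondrial step. Dld also serves the pyruvate and branched-chain dehydrogenase complexes.

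Upstream sequence from RefSeq (build GRCm38.p6) was found for all 9 members. The 250 bases before the start site are shown for Cs and Dlst, whose levels moved together over the libraries, and for Fh1 and Suclg2, whose correlations with them depended on the libraries included, as described below. Capitals mark CCAAT or its reverse complement, and the other motifs searched on both strands and shown in capitals where present (CCGGAA of ETS factors, the E-box CACGTG, the cyclic AMP response element TGACGTCA, the STAT motif TTCNNNGAA and the NRF1 motif) were not found in these 4 windows.
Cs (chr10:128337477-128337726, plus strand): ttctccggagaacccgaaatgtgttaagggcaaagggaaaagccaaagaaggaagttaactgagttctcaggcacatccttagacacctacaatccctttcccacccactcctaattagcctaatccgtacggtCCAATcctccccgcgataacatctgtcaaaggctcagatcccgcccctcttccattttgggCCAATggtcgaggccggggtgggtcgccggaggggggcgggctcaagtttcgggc
Dlst (chr12:85110583-85110832, plus strand): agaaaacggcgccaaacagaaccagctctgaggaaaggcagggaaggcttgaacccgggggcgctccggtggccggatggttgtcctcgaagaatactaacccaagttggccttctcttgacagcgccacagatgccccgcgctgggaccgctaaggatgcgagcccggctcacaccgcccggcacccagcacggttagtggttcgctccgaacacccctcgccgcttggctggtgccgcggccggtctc
Fh1 (chr1:175625636-175625885, minus strand): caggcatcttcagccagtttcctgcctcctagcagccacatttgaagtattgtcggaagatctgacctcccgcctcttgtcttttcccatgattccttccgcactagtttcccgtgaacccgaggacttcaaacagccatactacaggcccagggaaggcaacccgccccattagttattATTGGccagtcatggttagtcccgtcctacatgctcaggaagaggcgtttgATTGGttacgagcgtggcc
Suclg2 (chr6:95718847-95719096, minus strand): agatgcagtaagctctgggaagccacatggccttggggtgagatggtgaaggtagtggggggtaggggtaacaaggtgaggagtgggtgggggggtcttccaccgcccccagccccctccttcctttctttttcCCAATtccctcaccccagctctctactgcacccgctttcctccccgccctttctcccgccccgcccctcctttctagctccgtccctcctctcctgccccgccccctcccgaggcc
CCAAT stood in the upstream windows of 5 of 9 members and in 33.8% of all 32851 windows of the table, and GGGCGG, not capitalized above, in 7 of 9 members and 32.7% of windows. TGACGTCA stood in the windows of 2 members (Ogdh and Mdh2) and in 1.55% of all windows. Ogdh had 6 start sites in the table, and a match at any of them was counted. Cs and Fh1 held 2 CCAAT matches each, Suclg2 held 1 and Dlst 0.

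Total counts ran from 18836625 to 32174287 a library. The members had 1219 to 20524 counts each, so none was near the limit of detection. Kit (740 to 1552 CPM, counts scaled to the library size) and Ly6a, which encodes Sca-1 (13.1 to 166 CPM), were detected in every library. The WT libraries had Xist at 455 to 511 CPM and Ddx3y at no more than 0.101 CPM, whereas the other 12 had Xist at no more than 19.5 CPM and Ddx3y at 124 CPM or more, so WT differed from the mutant groups in sex-linked transcripts as well as in genotype and treatment, and these cannot be told apart. In the slope of gene level on GC content, AG221 libraries A8 (-0.38 log2 per 10 points of GC) and A10 (-0.26) and ruxolitinib library A16 (-0.14) lay below the other 12 libraries (-0.09 to 0.22). Effect sizes in comparisons that use these 3 libraries, and the correlations, are given with and without them. Without them A9 is the only AG221 library, so counts called without them are given only for comparisons that leave out the AG221 group. Libraries of vehicle, AG221 and ruxolitinib are lettered A and those of combined and WT are lettered B. What the letter marks is not given, so comparisons of an A with a B group cannot tell it apart from drug or genotype.

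Per kilobase of the longest transcript, Mdh2 had the highest level in WT cells (215 ± 27.9 CPM per kb, SD, n = 3) and Aco1 the lowest (17.8 ± 1.71). Ogdh followed Mdh2 at 90.8 ± 6.61 and Cs came next at 79.8 ± 4.76, which differed by less than the sum of their SDs. Dld (68.2 ± 5.32), Suclg1 (56.9 ± 7.24), Dlst (48.5 ± 4.83), Fh1 (41.8 ± 4.60) and Suclg2 (36.1 ± 1.81) completed the order on the same scale. From Dld to Suclg2 no neighbour differed by more than the sum of the SDs, whereas the gaps from Mdh2 to Ogdh, from Cs to Dld and from Suclg2 to Aco1 were larger than it. Dividing by the length of all annotated exons instead placed Dld (47.1 CPM per kb of exons) above Cs (41.5) and moved Dlst from 6 to 8 of 9, behind Fh1 and Suclg2, so the order of these 5 members depends on the length used.

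Vehicle-treated double-mutant cells carried more of these transcripts than WT cells. In vehicle against WT, 7 of 9 members were called higher at an adjusted p under 0.05 (edgeR quasi-likelihood test, Benjamini-Hochberg adjustment over all genes tested), and 0 lower. Of all genes tested, 15.4% were called higher. The median log2 fold change over the members was 0.68, beside -0.09 over all genes tested. In all 9 members every vehicle library lay above every WT library, as did 25.6% of all genes tested. This holds for CPM scaled by TMM factors, which were 1.13 to 1.17 in WT and 0.92 to 0.97 in vehicle. On total counts at least Suclg2 overlapped, with 3524 of 27433630 counts in vehicle library A4 and 3821 of 26408209 in WT library B31.

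Mdh2 had the largest fold change of the members in this comparison. Its level was 323, 315 and 397 CPM in the WT libraries (B28, B30, B31), 634, 491 and 695 in vehicle (A1, A3, A4), 708, 749 and 747 in AG221 (A8, A9, A10), 604, 825 and 622 in ruxolitinib (A14, A16, A17) and 477, 631 and 566 in combined libraries (B24, B25, B26). Every library of the 4 mutant groups was above every WT library. The log2 fold change of vehicle against WT was 0.81 ± 0.17 (SE), a 1.76-fold higher level (edgeR, adjusted p = 0.00555).

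Cs, in the same order of libraries, was at 246, 223 and 249 CPM in WT, 417, 320 and 471 in vehicle, 608, 425 and 514 in AG221, 396, 639 and 413 in ruxolitinib and 299, 385 and 367 in combined libraries. The WT libraries were again the lowest, and the ruxolitinib group was spread by A16, its highest library. Its log2 fold change of vehicle against WT was 0.75 ± 0.20 (edgeR, adjusted p = 0.016).

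The genes of the 3 enzymes of the 2-oxoglutarate dehydrogenase complex rose in vehicle against WT. Ogdh, the dehydrogenase subunit, was at 399, 345 and 380 CPM in WT, 661, 528 and 614 in vehicle, 800, 505 and 673 in AG221, 653, 792 and 654 in ruxolitinib and 420, 520 and 460 in combined libraries. Dlst, the succinyltransferase subunit, was at 167, 138 and 163 CPM in WT, 276, 221 and 306 in vehicle, 326, 263 and 324 in AG221, 221, 353 and 234 in ruxolitinib and 171, 211 and 222 in combined libraries. Dld, the shared dihydrolipoamide dehydrogenase, was at 177, 159 and 185 CPM in WT, 259, 221 and 304 in vehicle, 433, 275 and 324 in AG221, 245, 369 and 259 in ruxolitinib and 198, 225 and 240 in combined libraries. In each of the 3, no WT library reached the lowest library of another group. In vehicle against WT the log2 fold changes were 0.68 ± 0.16 for Ogdh (edgeR, adjusted p = 0.0104), 0.78 ± 0.19 for Dlst (0.011) and 0.59 ± 0.19 for Dld (0.0328).

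Suclg1, the alpha subunit of succinyl-CoA ligase, was at 149, 143 and 180 CPM in WT, 228, 185 and 234 in vehicle, 348, 267 and 318 in AG221, 198, 253 and 212 in ruxolitinib and 189, 201 and 217 in combined libraries. The AG221 libraries were the 3 highest of all 15. Suclg2, the beta subunit of the GTP-forming ligase, was at 121, 116 and 128 CPM in WT, 160, 139 and 139 in vehicle, 125, 141 and 129 in AG221, 134, 179 and 155 in ruxolitinib and 135, 149 and 136 in combined libraries. It varied least, and its AG221 libraries overlapped WT. In vehicle against WT, Suclg1 rose by 0.46 ± 0.15 (edgeR, adjusted p = 0.0318), whereas Suclg2 had a log2 fold change of 0.26 ± 0.12 that did not pass (adjusted p = 0.11).

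Fh1, which hydrates fumarate to malate, was at 104, 102 and 124 CPM in WT, 187, 142 and 207 in vehicle, 111, 187 and 115 in AG221, 164, 190 and 164 in ruxolitinib and 141, 163 and 165 in combined libraries. AG221 libraries A8 and A10 lay within the WT range, and A9 lay within the vehicle range. Aco1 was at 72.8, 60.6 and 70.8 CPM in WT, 94.7, 83.5 and 102 in vehicle, 121, 85.7 and 93.9 in AG221, 89.3, 132 and 86.9 in ruxolitinib and 63.6, 72.0 and 80.3 in combined libraries. Its combined libraries overlapped WT. In vehicle against WT the log2 fold change of Fh1 was 0.70 ± 0.20 (edgeR, adjusted p = 0.0192) and that of Aco1, which did not pass, 0.45 ± 0.18 (adjusted p = 0.07).

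**Figure D1:**
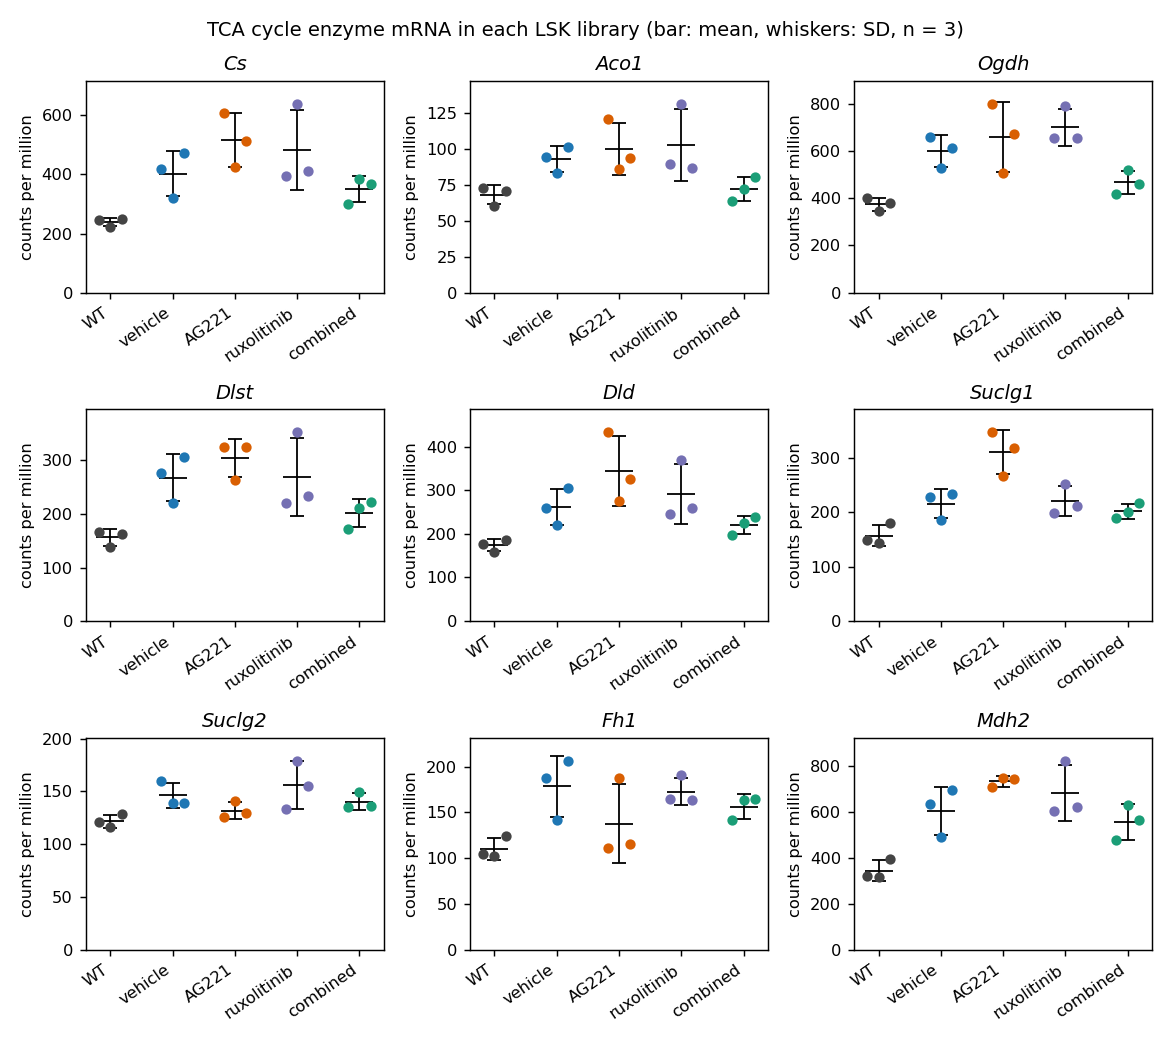
CPM (vertical axis) of the 9 members in each library, by group; points are libraries, bars means and whiskers SDs (n = 3). WT libraries are lowest for most members, AG221 libraries of Fh1 split into 111 and 115 against 187 CPM, and the combined means for Cs, Ogdh, Dlst and Dld lie between those of WT and the other mutant groups.

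The number of members called in vehicle against WT fell to 4 without library A1, 3 without A4, 4 without B28 and 1 without B30. Over all genes tested, 1527 of 19116, 1692 of 19125, 1765 of 18684 and 844 of 18054 were called higher in these fits. With all libraries 2747 of 17834 were. Over these and all other alternatives no member changed sign in this comparison. All 10 marker lists of cell types and handling differed between these groups without overlap in summed level. The lists of LSK cells (4152 to 4579 CPM in WT, 2126 to 3561 in vehicle), B-lineage cells (66.9 to 91.4 and 40.6 to 51.1) and plasma cells (594 to 1274 and 65.2 to 156) were lower in sum in vehicle. By gene, 3 of 10 LSK, 3 of 7 B-lineage and 4 of 5 plasma markers were called lower, and 1 LSK marker was called higher. Of all genes tested, 17.9% were called lower and 15.4% higher. The list of T and NK cells was higher in sum (156 to 221 CPM in WT, 409 to 457 in vehicle), but not as a set. The median log2 fold change of its 5 genes was -0.60, with 1 called higher and 0 lower. The lists of megakaryocytes (249 to 338 CPM in WT and 860 to 921 in vehicle), mast cells and basophils (71.2 to 147 and 496 to 990) and monocytes and dendritic cells (186 to 205 and 455 to 877) were higher in sum. Called higher were 3 of 6, 4 of 5 and 3 of 5 of their genes, and 0 were called lower. Sept5 covers 91.1% of the exons of the megakaryocyte marker Gp1bb on the same strand. Neutrophil granule and maturation genes were higher too: the summed level of 9 such markers was 3476 to 3833 CPM in WT, 7823 to 12839 in vehicle, 17355 to 20467 in AG221, 12195 to 19309 in ruxolitinib and 4305 to 7727 in combined libraries. The sum of 10 immediate early genes was 606 to 872 CPM in WT, 5611 to 11904 in vehicle, 2549 to 4044 in AG221, 3055 to 7430 in ruxolitinib and 555 to 1040 in combined libraries. The sum of 9 erythroid markers was 270 to 404 CPM in WT, 682 to 1314 in vehicle, 1240 to 1795 in AG221, 924 to 3532 in ruxolitinib and 620 to 1611 in combined libraries. No gene of these lists was at or under 3 counts in every library of a group. The part of these cells and genes in the members' levels was not tested, and in bulk RNA fewer cells of a type and less RNA per cell cannot be told apart.

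Both single-drug groups stayed above WT. In AG221 against WT 7 of 9 members were called higher (22.2% of all genes tested), and in ruxolitinib against WT 9 of 9 (16.1%). The median log2 fold changes over the members were 0.96 and 0.75, beside -0.25 and -0.14 over all genes tested. Groups did not overlap, with WT lower, in 7 members for AG221 (25.3% of all genes tested) and in 9 for ruxolitinib (25.4%). All 4 comparisons against WT share the WT libraries.

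In AG221 against WT the called members ranged from Aco1 (0.56 ± 0.18, adjusted p = 0.0229 by edgeR) to Cs (1.11 ± 0.20, adjusted p = 0.00115). Suclg1 rose by 0.98 ± 0.15 (edgeR, adjusted p = 0.000392) and Mdh2 by 1.09 ± 0.17 (adjusted p = 0.00041). Fh1 (0.32 ± 0.20, adjusted p = 0.183) and Suclg2 (0.12 ± 0.12, adjusted p = 0.447) did not pass. Without libraries A8, A10 and A16, which leaves A9 alone in AG221, the estimates ran from 0.20 to 1.11, with Fh1 at 0.76. In ruxolitinib against WT the values ran from 0.36 ± 0.12 for Suclg2 (edgeR, adjusted p = 0.0415) to 1.01 ± 0.20 for Cs (adjusted p = 0.00512). The count in ruxolitinib against WT was 4 without A16, 5 without B28 and 3 without B30. Over all genes tested, these fits called 1699, 1816 and 1037 higher, beside 2867 with all libraries. Without A8, A10 and A16, 6 members were called, beside 2115 of 22662 genes called higher. Aco1, Suclg1 and Suclg2 were not called there, and the median over the members was 0.54.

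**Figure D2:**
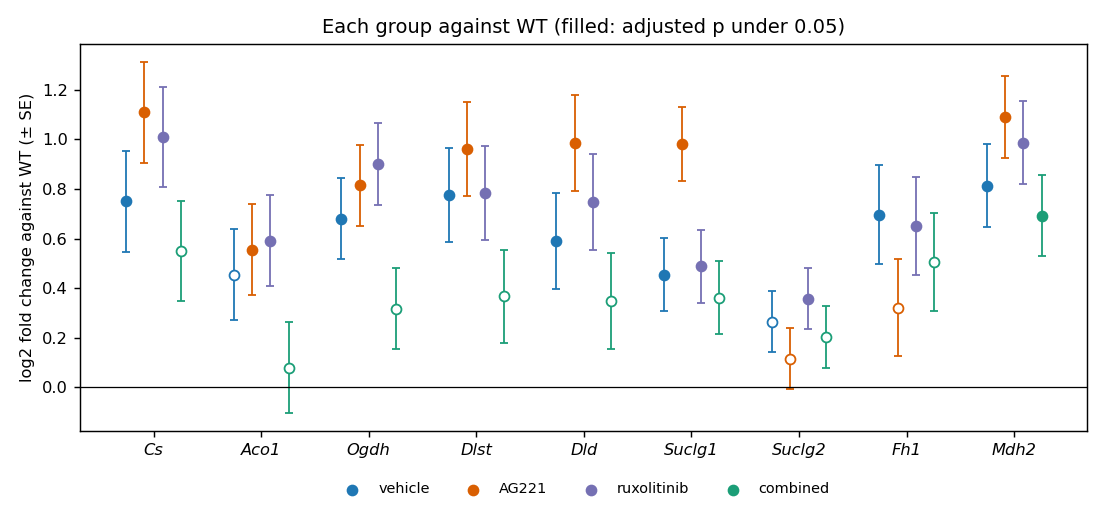
Log2 fold change of each mutant group against WT (vertical axis, whiskers ± SE) for the 9 members; filled points passed an adjusted p of 0.05. All 9 are filled for ruxolitinib, Suclg2 and Fh1 are open for AG221, and Mdh2 alone is filled for the combined group.

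With both drugs fewer members passed the test against WT than with vehicle or either drug alone, and the direct differences between those groups are given below. Combined and WT libraries share the letter B while the other groups are lettered A, so the drugs and the letter cannot be told apart here. In combined against WT 1 of 9 was called higher, Mdh2 (0.69 ± 0.17, adjusted p = 0.0404 by edgeR), beside 1.63% of all genes tested. The median log2 fold change over the members was 0.36, beside 0.04 over all genes tested. In 8 members every combined library still lay above every WT library, as in 22.3% of all genes tested, and Aco1 was the exception (0.08 ± 0.18, adjusted p = 0.817). The next values were 0.55 ± 0.20 for Cs (adjusted p = 0.119) and 0.51 ± 0.20 for Fh1 (adjusted p = 0.135). The call of Mdh2 was lost, leaving 0 members called, without any one of libraries A1, A8, A10, A17, B25, B26, B28 and B30, whereas 2 were called without A9. Over all genes tested, 50 to 236 were called higher in the fits that lost it and 805 without A9, beside 291 with all libraries.

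Against vehicle, no member was called in any of the drug groups (edgeR). For AG221 against vehicle 0 of 9 were called (0.987% of all genes tested in either direction), with 1 at an unadjusted p under 0.05 and 1 called by DESeq2. The values ran from -0.38 ± 0.20 for Fh1 (adjusted p = 0.248) to 0.53 ± 0.15 for Suclg1 (adjusted p = 0.0722). Without A9 both passed by edgeR, Fh1 at -0.67 (adjusted p = 0.00927) and Suclg1 at 0.62 (adjusted p = 0.00859). That fit called 4672 of 19125 genes tested in either direction. Without A8, A10 and A16, with A9 the only AG221 library, Fh1 was at 0.05 and Suclg1 at 0.29. For ruxolitinib against vehicle 0 of 9 were called (0.0168% of all genes tested), 0 had an unadjusted p under 0.05 and 0 were called by DESeq2. The values ran from -0.05 ± 0.20 for Fh1 to 0.26 ± 0.20 for Cs, and without A8, A10 and A16 from -0.24 to 0.11 with 0 called.

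For combined against vehicle 0 of 9 were called (12.5% of all genes tested in either direction), with 2 at an unadjusted p under 0.05 and 0 called by DESeq2. All 9 point estimates were below 0, from -0.06 ± 0.12 for Suclg2 to -0.41 ± 0.19 for Dlst (edgeR, adjusted p = 0.185), and the median was -0.20, beside 0.04 over all genes tested. Ogdh was at -0.36 ± 0.16 (adjusted p = 0.17 by edgeR), and without A8, A10 and A16 it was the 1 member called (-0.40, adjusted p = 0.0492). The fit without those libraries called 1361 of 22662 genes lower.

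Set directly against the single-drug groups, the combined group was lower for part of the cycle, in comparisons that also run between letters A and B. In combined against AG221 5 of 9 members were called lower (14.3% of all genes tested): Suclg1 (-0.62 ± 0.15, adjusted p = 0.00775 by edgeR), Dld (-0.64 ± 0.19, 0.0226), Dlst (-0.60 ± 0.19, 0.0284), Ogdh (-0.50 ± 0.16, 0.0319) and Cs (-0.56 ± 0.20, 0.0483). Every combined library lay below every AG221 library in 6 members, as in 20.3% of all genes tested, whereas Ogdh overlapped (520 CPM in B25, 505 in A9). Fh1 (0.18 ± 0.20) and Suclg2 (0.09 ± 0.12) had estimates above 0, which turned to -0.09 and -0.21 with upper quartile normalization. This set of calls rested on few libraries. 1 member was called without A8, 2 without A10, 1 without B24, 2 without B25 and 3 without B26. Over all genes, those fits called 1293, 1515, 1137, 1590 and 1914 lower in the same order, beside 2546 with all libraries. Without A8, A10 and A16, with A9 alone in AG221, the 5 estimates ran from -0.13 (Ogdh) to -0.42 (Suclg1).

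In combined against ruxolitinib 1 of 9 was called lower, Ogdh (-0.58 ± 0.16, adjusted p = 0.0315 by edgeR), beside 3.94% of all genes tested. All 9 estimates were below 0, with a median of -0.40, beside 0.01 over all genes tested. Without A8, A10 and A16 the median was -0.20 and the estimates ran from -0.51 to -0.05. Ogdh was still the 1 member called there (adjusted p = 0.0402 by edgeR), beside 709 of 22662 genes called lower. The call of Ogdh was lost without any one of A10, A14, A16, A17, B24, B25 and B26, leaving 0. Over all genes tested, 274 to 583 were called lower in the fits that lost it, beside 702 with all libraries. In AG221 against ruxolitinib 0 of 9 were called (3.43% of all genes tested in either direction), with 1 at an unadjusted p under 0.05 and 1 by DESeq2. The largest difference was that of Suclg1 (0.49 ± 0.15, adjusted p = 0.0742 by edgeR). Without A9, 2 members were called, beside 4808 of 19125 genes in that fit. Without A8, A10 and A16, with A9 alone in AG221, the estimates ran from -0.39 to 0.37.

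Whether the effect of AG221 differed with and without ruxolitinib was tested as an interaction. Of the groups in this contrast only combined is lettered B, so an interaction cannot be told apart from a difference between the letters. It was called for 0 of 9 members (8.42% of all genes tested in either direction), with 7 at an unadjusted p under 0.05 and 4 called by DESeq2. The smallest adjusted p-values by edgeR were those of Suclg1 (-0.66 ± 0.21, 0.061) and Ogdh (-0.72 ± 0.23, 0.062), and the estimates ran from -0.82 ± 0.28 for Cs to 0.23 ± 0.28 for Fh1. The median was -0.61, beside 0.07 over all genes tested, and -0.24 without A8, A10 and A16, where A9 was the only AG221 library. Without A9, 4 members were called, beside 6087 of 19125 genes in that fit.

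Over the 15 libraries 7 members were closely correlated, and the correlation of the other 2 with them depended on which libraries were included. Cs, Aco1, Ogdh, Dlst, Dld, Suclg1 and Mdh2 had Pearson's r of log2 CPM from 0.769 to 0.976 with each other. Fh1 and Suclg2 had r = 0.787 with each other and 0.251 to 0.648 with those 7. Without A8, A10 and A16 the 7 had r from 0.677 to 0.978 with each other, while Fh1 had r from 0.804 to 0.976 with them (0.973 with Cs) and Suclg2 from 0.617 to 0.811. Thus over those 12 libraries Fh1 was as closely correlated with the 7 as they were with each other, and its low r over 15 rested on the 3 libraries. These are descriptions over libraries that share groups and normalization. Among all other genes tested, Fh1 was most like Sucla2, the beta subunit of the ATP-forming succinyl-CoA ligase (r = 0.981), and then Wdr18 (r = 0.979), and Suclg2 was most like Sgta (r = 0.935) and Cdk2 (r = 0.933). Dld was most like Ndufs1, a subunit of respiratory complex I (r = 0.992), and Idh3a, the catalytic subunit of the NAD-dependent isocitrate dehydrogenase (r = 0.988).

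**Figure D3:**
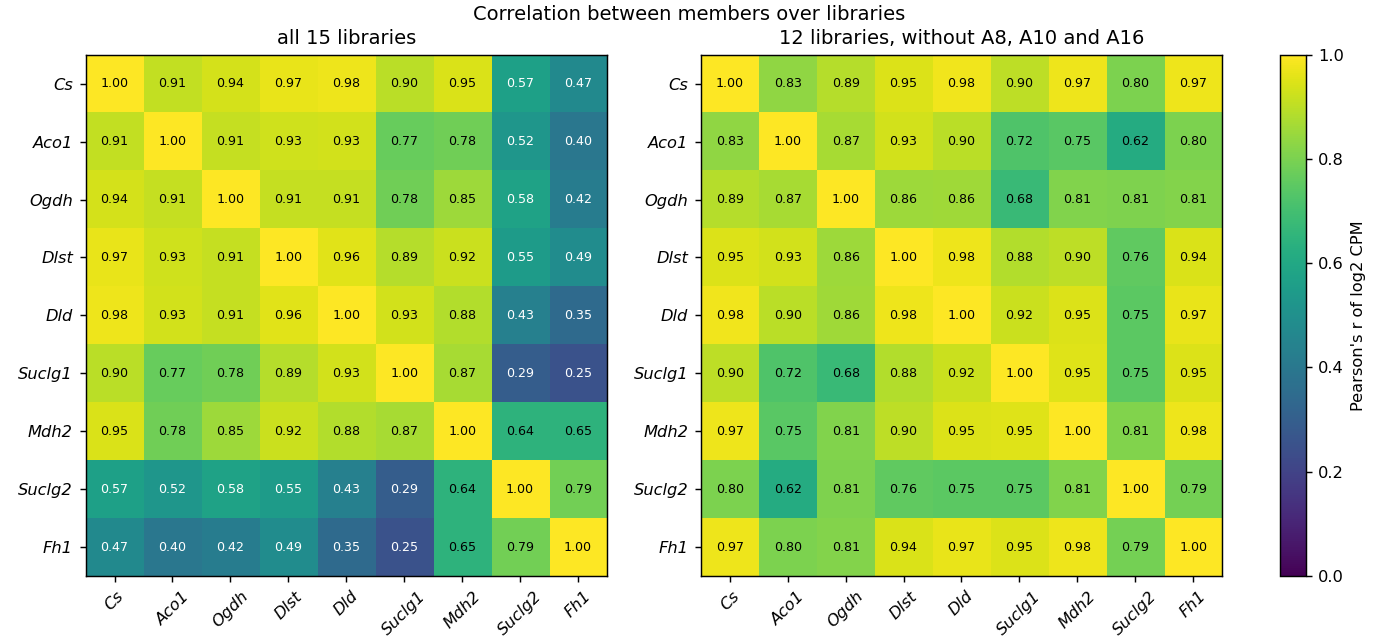
Pearson's r of log2 CPM for each pair of members (colour and printed value) over all 15 libraries (left) and over 12, without A8, A10 and A16 (right). Fh1 has r of 0.648 or less with the 7 members in the upper left over 15 libraries and 0.804 or more over 12; Suclg2 has 0.645 or less and 0.617 or more.

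The other genes nearest in likeness to Cs were Gtf2f1 (r = 0.990) and Nup93 (r = 0.988), to Mdh2 the mitochondrial serine hydroxymethyltransferase Shmt2 (r = 0.985) and Nans (r = 0.980), and to Dlst the chaperonin subunit Cct6a and Snrpa1 (r = 0.988 each). Ogdh was nearest to Mcm10 (r = 0.981) and Mcm3 (r = 0.977), genes of DNA replication. Suclg1 was nearest to the ribosomal protein genes Rpl5 and Mrpl11 (r = 0.995 each), and Aco1 to the nucleoporin genes Nup155 (r = 0.972) and Nup160 (r = 0.966). Without A8, A10 and A16 the r of the members with these nearest genes ran from 0.914 to 0.990.

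The split within the AG221 group was also present as a ratio of 2 enzymes in the same library. The ratio of Fh1 to Mdh2, enzymes of neighbouring steps, was 0.322, 0.324 and 0.313 in WT, 0.295, 0.289 and 0.297 in vehicle, 0.157, 0.25 and 0.154 in AG221 (A8, A9, A10), 0.272, 0.231 and 0.263 in ruxolitinib and 0.296, 0.259 and 0.291 in combined libraries. AG221 lay below WT, vehicle and combined libraries without overlap but overlapped ruxolitinib, and its libraries A8 and A10 were far below A9. The exact permutation test of AG221 against vehicle gave p = 0.1, two-sided, the smallest that 3 against 3 libraries allow. In all, 6 ratios were compared over 10 pairs of groups each, so none could pass. Over the 15 libraries the ratio of Dlst to Ogdh spanned 0.338 to 0.521 and that of Dld to Dlst 0.937 to 1.33.

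The ratio of Suclg2 to Suclg1, the subunits of 1 enzyme, was 0.361, 0.527 and 0.407 in AG221, below the 0.595 to 0.812 of the other 12 libraries. The ratio of Sucla2 to Suclg1 was 0.283, 0.619 and 0.363 in AG221, again lowest in A8 and A10, and 0.627 to 0.801 in the other 12 libraries. After correction of each library for GC content the ratio of Fh1 to Mdh2 was 0.149 in A8, 0.255 in A9 and 0.150 in A10. Fh1 and Mdh2 are close in GC content (47.7% and 50.9%), so this correction could move their ratio little and nothing is concluded from it. Idh2 itself was at 55.1, 335 and 65.9 CPM in A8, A9 and A10 and at 124 CPM in A16, beside 212 to 568 CPM in the remaining libraries.

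**Figure D4:**
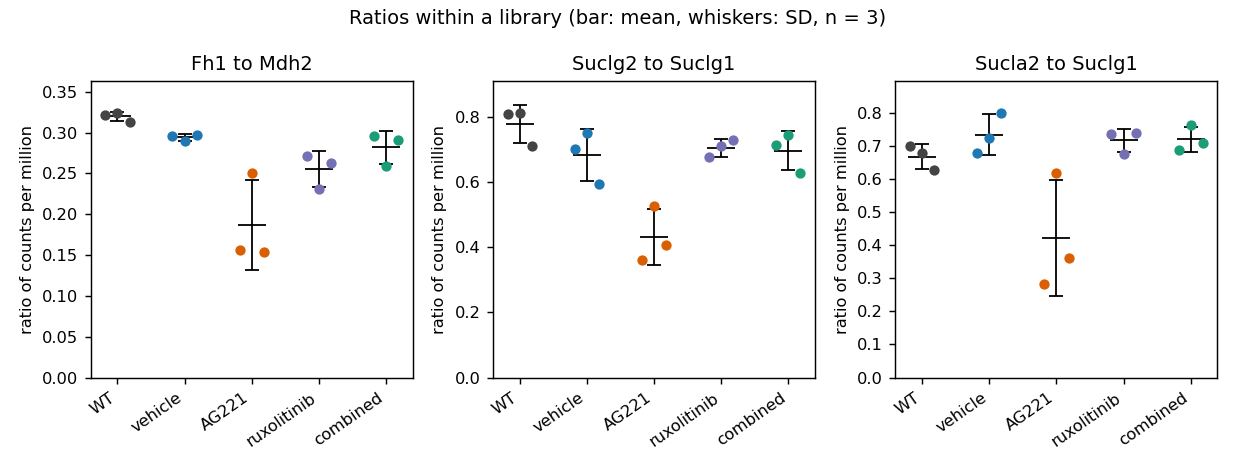
Ratio of the CPM of 2 genes within a library (vertical axis) for Fh1 to Mdh2, Suclg2 to Suclg1 and Sucla2 to Suclg1; points are libraries, bars means and whiskers SDs (n = 3). AG221 libraries A8 and A10 have the lowest values in each panel (0.154 and 0.157 for Fh1 to Mdh2), below A9.

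Other genes around the cycle were counted in 6 lists of 54 genes. Of 13 other genes of the cycle and its complexes, 8 were called higher and 2 lower in vehicle against WT (median log2 fold change 0.50), beside 15.4% of all genes tested called higher and 17.9% lower. They included the succinate dehydrogenase subunits Sdhc (0.63 ± 0.16, adjusted p = 0.012 by edgeR) and Sdhd (0.73 ± 0.19, 0.0131). In combined against vehicle 1 rose, Sdhaf1, an assembly factor of succinate dehydrogenase (2.29 ± 0.43, adjusted p = 0.00475), and 0 fell, beside 8.28% of all genes tested called higher and 4.21% lower. The level of Sdhaf1 was low, at 0.53 to 0.89 CPM in vehicle and 2.22 to 4.46 in combined libraries. A gene on the opposite strand covers 69.6% of the exons of Sdhaf1, and with strand not given the reads of the 2 cannot be told apart. Among isocitrate dehydrogenases in vehicle against WT, Idh1 (0.82 ± 0.21, adjusted p = 0.0125), Idh3a (0.84 ± 0.23, 0.0172) and Idh3g (0.51 ± 0.15, 0.0193) rose, while Idh3b (0.20 ± 0.14, 0.286) and Idh2 (-0.20 ± 0.59, 0.811) did not pass.

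Of 14 genes of pyruvate entry, 3 rose and 1 fell in vehicle against WT (median 0.04), beside 15.4% of all genes tested called higher and 17.9% lower. The pyruvate dehydrogenase subunits Pdhb (0.62 ± 0.11, adjusted p = 0.00309 by edgeR) and Pdha1 (0.50 ± 0.13, 0.012) and the pyruvate carrier Mpc1 (0.62 ± 0.15, 0.0107) rose. Genes on the opposite strand cover 16.1% of the exons of Pdha1 and 23.1% of those of Mpc1. In combined against vehicle 1 rose, Pdk1, a kinase that inhibits pyruvate dehydrogenase (1.43 ± 0.38, adjusted p = 0.0241 by edgeR), beside 8.28% of all genes tested called higher. The 5 lipoylation genes serve the making or attachment of the cofactor that Dlst needs. Among them Lias rose (0.53 ± 0.18, adjusted p = 0.0416 by edgeR) and Lipt2 fell (-2.43 ± 0.63, 0.0137) in vehicle against WT. In combined against vehicle Lipt2 rose (3.38 ± 0.65, 0.00525). The level of Lipt2 was low, at 3.45 to 7.11 CPM in WT, 0.56 to 1.14 in vehicle and 2.91 to 13.5 in combined libraries.

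Of 10 genes of glutamine, malate and citrate routes, 3 rose and 3 fell in vehicle against WT (15.4% and 17.9% of all genes tested), and the aspartate aminotransferases Got2 (0.75 ± 0.16, adjusted p = 0.00714 by edgeR) and Got1 (0.81 ± 0.21, 0.0142) were among those that rose. In combined against vehicle 2 rose (8.28% of all genes tested called higher), among them Glud1, glutamate dehydrogenase (1.78 ± 0.32, adjusted p = 0.00426 by edgeR). Of 6 mitochondrial carriers 1 rose in vehicle against WT, the glutamate carrier Slc25a22 (0.51 ± 0.15, adjusted p = 0.0207), and it fell in combined against vehicle (-0.76 ± 0.15, 0.00571). The lipoylation and carrier counts stand beside the same shares of all genes tested.

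Of 6 genes of the iron response, in which Aco1 protein acts as an RNA-binding regulator, 3 rose and 0 fell in vehicle against WT (15.4% and 17.9% of all genes tested). They were the transferrin receptor Tfrc (2.04 ± 0.35, adjusted p = 0.0029 by edgeR), the iron transporter Slc11a2 (1.23 ± 0.36, 0.0224) and the ferritin light chain Ftl1 (0.34 ± 0.12, 0.0483). In combined against vehicle Tfrc fell (-1.49 ± 0.35, adjusted p = 0.0134 by edgeR) and 0 rose, beside 4.21% of all genes tested called lower and 8.28% higher.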

How the data were processed

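RNA from sorted CD45.2+ LSK cells was amplified with SMARTer and sequenced. The authors aligned reads with STAR 2.5.1a to mm10 (GRCm38) and deposited raw counts per Ensembl gene, and a table normalized with DESeq2 1.6.3 was not used here. Strand and the authors' annotation release are not given in the sources used here. Symbols came from GENCODE M21 for 44585 of 45232 identifiers, and no member shares exons with another gene there.

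The deposited counts of all 15 libraries were fitted together with edgeR 4.0.16 (R 4.3.3): TMM, filterByExpr by group, the quasi-likelihood test of 11 contrasts, Benjamini-Hochberg adjustment over 17834 genes, calls at adjusted p under 0.05. The common biological coefficient of variation was 0.313. CPM used TMM library sizes, and log2 CPM a prior count of 2. The p-values measure the spread between these libraries, which may be technical. The script was tested on simulated data. Alternatives were DESeq2 1.42.0, other normalizations, GC offsets, other filters, fits of only the groups compared, 15 fits without 1 library each, and, chosen after seeing the data, a fit and correlations without A8, A10 and A16. That last fit kept A9 alone of the AG221 libraries. Ratios were tested with SciPy 1.17.1.

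The members and lists were chosen with earlier results of these data known. All 9 members were named, with at most the 3 called genes of smallest adjusted p per other list and comparison, and the 2 genes nearest to each member in r; Sucla2 and the isocitrate dehydrogenases were given for comparison, and the values of some genes that these rules name are not reported here. Libraries lettered A were vehicle, AG221 and ruxolitinib and those lettered B combined and WT; what the letter marks is not given in the sources used here and cannot be told apart from the group.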

Additional observations from a re-analysis of the deposited data

How the results depend on the processing

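No paired analysis was possible because the replicate names are not shared between groups. Leaving out 1 library at a time, the number of members called ran from 1 to 9 in vehicle against WT, from 6 to 7 in AG221 against WT, from 3 to 9 in ruxolitinib against WT, from 0 to 2 in combined against WT, AG221 against vehicle and AG221 against ruxolitinib, from 1 to 7 in combined against AG221, from 0 to 1 in combined against ruxolitinib and from 0 to 4 in the interaction, and stayed at 0 in ruxolitinib and combined against vehicle. The calls over all genes tested moved as well. They ran from 844 to 3733 called higher in vehicle against WT, from 1137 to 3327 called lower in combined against AG221 and from 44 to 6087 called in the interaction. Upper quartile normalization called 4 members in vehicle against WT, 0 in combined against WT, 1 in AG221 against vehicle and 6 in the interaction. It moved the median of all genes by over 0.1 in several contrasts (combined against AG221 from 0.11 to -0.18). Requiring 10 counts in every library called 0 in combined against WT, 1 in AG221 against vehicle and against ruxolitinib and 4 in the interaction. DESeq2 called 1, 1 and 4 in those last 3. Fitting only the groups compared called 2 in combined against WT and 2 in combined against AG221. With no filter beyond 1 count, 3 were called in combined against AG221 and 0 in combined against ruxolitinib, as with GC offsets in the latter (0). Without A8, A10 and A16, chosen after seeing the data, 1 was called in combined against vehicle. Counts in comparisons with AG221 are not given for that fit, because A9 alone remained. The causes were not tested.

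Of 2277 member values under alternatives over all 11 contrasts, 54 changed sign, 52 gained a call and 109 lost one. No sign changed in vehicle, AG221 or ruxolitinib against WT. The values given above that turned were Aco1 in combined against WT (-0.12 with upper quartile, -0.043 with 10 counts in every library), Fh1 and Suclg2 in combined against AG221 (-0.088 and -0.21 with upper quartile, -0.27 and -0.021 without A8, A10 and A16, and Suclg2 -0.022 with GC offsets), and Fh1 in the interaction (-0.063 with upper quartile). Without A8, A10 and A16, Fh1 also turned in AG221 against vehicle (0.047) and against ruxolitinib (0.18) and in the interaction (-0.14), and Cs in ruxolitinib against vehicle (-0.0034). Leaving out 1 library, Suclg2 in combined against vehicle ran from -0.11 to 0.0071 and Fh1 in ruxolitinib against vehicle from -0.19 to 0.068. With 3 libraries a group, a difference that did not pass is not shown to be absent.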
